A study of Homo sapiens with 12 samples.

Results

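The 41 genes described here encode the folding, quality control, degradation and translocation machinery of the endoplasmic reticulum (ER). They were taken by symbol from a table of 29607 genes, all 41 were found, and all 41 passed the filter for testing of at least 1 TPM (a transcript's share of a library, corrected for its length) in at least 2 libraries. KMS11, a human line grown from multiple myeloma, was profiled by RNA-seq of poly(A) RNA, with 6 groups of 2 libraries each, 12 in all. In 2 groups a short hairpin RNA against the kinase STK17B, named sh1 and sh2, had been introduced, and the labels give their genotype as STK17B shRNA with no treatment. The inhibitor group carried the control hairpin and had been exposed to an STK17B inhibitor whose name, dose and exposure time the labels do not give. shControl carried the control hairpin alone, with a WT genotype label and no treatment. The last 2 groups carried a vector expressing STK17B cDNA (overexpression) and the empty vector (Vector). No group was labelled as vehicle, so the inhibitor libraries were compared with untreated shControl. All groups come from 1 cell line, and the labels do not say whether replicate libraries came from separate cultures, so p-values may measure technical spread only.

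A secreted or membrane protein enters the ER through the SEC61 channel as it is made, is held by chaperones, receives disulfide bonds from isomerases, and leaves in COPII vesicles. A chain that fails to fold is drawn back out through a membrane ubiquitin ligase complex and degraded. ERN1, EIF2AK3 and ATF6 sense unfolded protein and start the unfolded protein response, which raises many of these genes through the transcription factors XBP1 and ATF6. Plasma cells and the myeloma cells that derive from them carry a large ER for antibody secretion and depend on this system. STK17B, the kinase changed here, belongs to the death-associated protein kinases and phosphorylates serine and threonine.

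The labels' checks came out as follows. STK17B had 12.7 and 10.9 TPM with sh1, 14.7 and 14.5 TPM with sh2 and 24.9 and 22.4 TPM with the inhibitor, against 27.1 and 27.4 TPM in shControl. It had 94.1 and 84.5 TPM with overexpression, against 28.2 and 31.5 TPM with Vector. Its level changed by -0.998 on the log2 scale with the hairpins (SE 0.073, adjusted p = 7.0e-06), by -0.20 with the inhibitor (adjusted p = 0.090) and by 1.55 with overexpression (adjusted p = 2.4e-06). Between 11672 and 12353 genes reached 1 TPM per library, and replicate libraries correlated at 0.9906 to 0.9927 (Pearson, log2 scale, across genes). Of the 11 plasma cell and KMS11 markers 10 reached 1 TPM in every library, and the list summed to 5757 to 8772 TPM, 56.3% to 65.4% of it IGJ, the joining chain of antibody. The other, CD38, was under 1 TPM in 10 of the 12 libraries, at 0.13 to 1.47 TPM. Erythroid, fibroblast and myeloid markers summed to at most 1.06, 3.18 and 2.36 TPM in any library, and epithelial markers to 9.99 to 15.7 TPM. Of 6 T and NK cell markers, 4 were under 1 TPM in every library and CD3D was at 0. The summed level of that list was nearly all CD7 and moved with the groups, at 220.2 to 259 TPM with the hairpins and 226 to 240.7 TPM with the inhibitor, against 142.6 to 143.1 TPM in shControl. It was 417 to 450.2 TPM with overexpression, against 222 to 235 TPM with Vector. Its part in the members' results was not tested. In bulk RNA, fewer cells of a type and less RNA per cell cannot be told apart.

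Sequence elements through which the unfolded protein response is known to act were looked for in the members' promoters, since they are what ties several members to that response. The windows run from 250 bases before to 50 bases after each start in the RefSeq promoter table (GRCh38.p14), which held 37 of the 41 members, the others being PDIA3, SEC24D, DERL1 and DERL3. Both strands were searched for the ER stress element ERSE (CCAAT and CCACG with any 9 bases between), its shorter form ERSE-II (ATTGG and CCACG with any 1 base between) and the unfolded protein response element UPRE (TGACGTGG). ERSE was in the windows of 6 of the 37 members, HSPA5, HSP90B1, CANX, CALR, PDIA6 and CRELD2, and in those of 0.0916% of all 27305 gene symbols. ERSE-II was in those of HYOU1, SDF2L1 and HERPUD1 and in those of 0.0696% of all symbols. UPRE, at 8 bases the shortest, was in those of HYOU1, TXNDC11, TXNDC5, SEC62, SSR3 and SSR4 and in those of 0.927% of all symbols. The examples below are shown 5′ to 3′ on the gene's strand with the matching bases in capitals, a match to the opposite strand appearing as the reverse complement. HSPA5, whose element lies at chr9:125241379-125241421 (minus strand), and HSP90B1, with elements at chr12:103930204-103930246 and chr12:103930309-103930351 (plus strand), are the genes in which such elements are best known. CALR at chr19:12938372-12938414 and HERPUD1 at chr16:56932013-56932047 (both plus strand) were lower with the hairpins. HYOU1 at chr11:119057374-119057405 (minus strand) carries a UPRE match, in capitals, that overlaps an ERSE-II match reading on into the bases after it. TXNDC5 at chr6:7910150-7910181 (minus strand) had the largest fall of any member with the hairpins. SDF2L1 at chr22:21642102-21642136 and SSR4 at chrX:153794527-153794558 (both plus strand) differed in a direct test between the inhibitor and the hairpins. Their effects of knockdown and of overexpression, each against its own control, also differed. Mean SDF2L1 levels were 182 TPM with both hairpins and 170 TPM with overexpression, against 237 TPM in shControl and 184 TPM with Vector.
HSPA5: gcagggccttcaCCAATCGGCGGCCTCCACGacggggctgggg
HSP90B1, first element: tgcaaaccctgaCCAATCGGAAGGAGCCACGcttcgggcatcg
HSP90B1, second element: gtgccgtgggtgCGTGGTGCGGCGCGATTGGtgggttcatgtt
CALR: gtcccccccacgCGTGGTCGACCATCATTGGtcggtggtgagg
HERPUD1: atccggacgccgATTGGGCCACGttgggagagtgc
SDF2L1: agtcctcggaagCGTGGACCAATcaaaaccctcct
HYOU1: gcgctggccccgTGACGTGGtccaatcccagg
TXNDC5: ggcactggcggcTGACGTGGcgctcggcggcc
SSR4: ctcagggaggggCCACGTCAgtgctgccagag

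In shControl the members ranged over more than 2 orders of magnitude on the TPM scale, which is per transcript length. CALR stood highest at 1895 ± 14.5 TPM (SD, n = 2), followed by TXNDC5 at 1301 ± 20.1 TPM and SSR4 at 1291 ± 11.3 TPM, whose libraries overlapped. HSP90B1 (1081 ± 4.73 TPM) and SEC61B (995 ± 14.8 TPM) came next, and the ERN1 transcript was the least abundant at 5.96 ± 0.096 TPM. All 3 stress sensors were among the scarcer members, with EIF2AK3 at 15.5 ± 0.37 TPM and ATF6 at 20.0 ± 0.38 TPM. Summed over the 41 genes, the members made up 10824 ± 111 TPM with sh1, 11686 ± 46.9 TPM with sh2 and 12330 ± 29.1 TPM with the inhibitor, against 13430 ± 128 TPM in shControl (SD, n = 2 each). They made up 12912 ± 5.80 TPM with overexpression, against 13528 ± 0.64 TPM with Vector. Relative to its own control the sum differed by -16.2% with both hairpins together, by -8.19% with the inhibitor and by -4.55% with overexpression, and the groups did not overlap in any of the 3 comparisons. With 4 libraries against 2 the exact two-sided permutation test cannot go below 0.0667, which it gave for the hairpins, and with 2 against 2 it cannot go below 0.333, which it gave for the inhibitor and for overexpression. The test treated the 4 hairpin libraries as replicates of 1 condition, though they come from 2 hairpins with differing sums. Its p for the hairpins therefore does not measure spread within 1 hairpin.

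**Figure D1:**
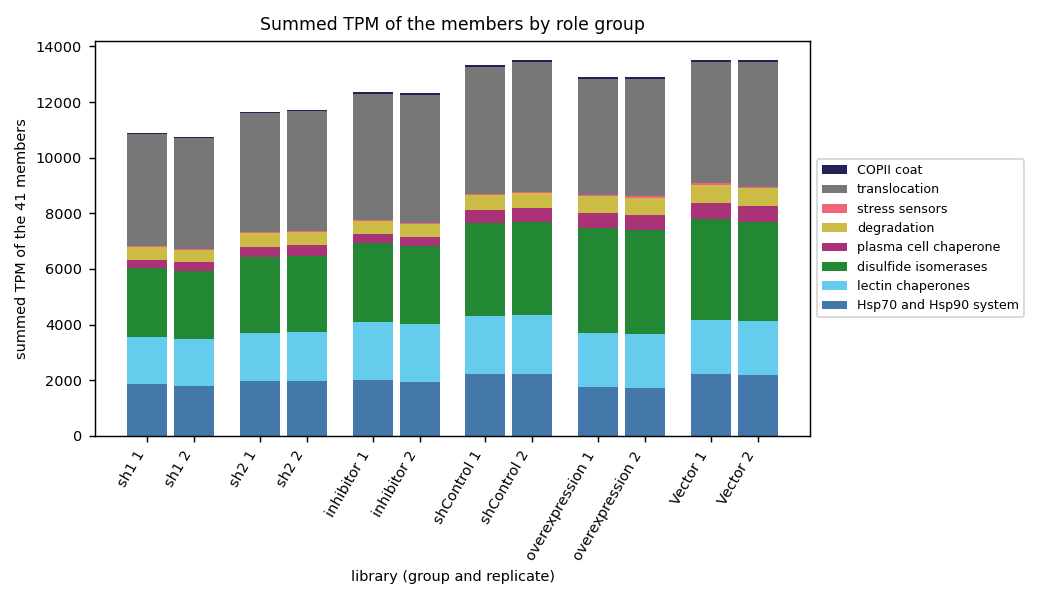
Summed TPM of the 41 members in each of the 12 libraries (bars, linear axis from 0), split by role group. The 4 hairpin bars are the shortest, at group means of 10824 and 11686 TPM, against 13430 TPM in shControl, and most of each bar is isomerases, translocation genes and chaperones.

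With the hairpins, averaged over sh1 and sh2, most members fell. Of 41 members 28 were lower than in shControl and 2 were higher at an adjusted p below 0.05 (limma on log2(TPM + 1), Benjamini-Hochberg over all 12731 genes tested), while 20.2% of all genes tested were lower and 26.2% were higher. The members' median log2 change was -0.24, against 0.029 over all genes. The falls were spread over the roles, with 7 of 8 genes of the Hsp70 and Hsp90 system, 5 of 7 disulfide isomerases, 6 of 9 translocation genes, both COPII coat genes and 2 of 3 stress sensors lower. Of the degradation genes 4 of 9 were lower and 1 was higher. Of the 14 members whose promoter window held any of the 3 motifs 10 were lower (median log2 change -0.21), and of the 23 whose window held none 16 were lower and 1 was higher (median -0.24).

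Among the chaperones, HSP90B1, the ER form of Hsp90, encoded at chr12:103930107-103953645 (GRCh38, GENCODE 29), had 882 and 846 TPM with sh1, 958 and 961 TPM with sh2 and 817 and 777 TPM with the inhibitor, against 1084 and 1078 TPM in shControl. All 6 hairpin and inhibitor libraries lay below both shControl libraries, and with the hairpins it fell (log2 change -0.25, SE 0.028, adjusted p = 9.5e-05). HSPA5, the Hsp70 of the ER lumen also called BiP, encoded at chr9:125234853-125241330, had 321 and 306 TPM with sh1, 313 and 324 TPM with sh2 and 353 and 345 TPM with the inhibitor, against 343 and 342 TPM in shControl. The 4 hairpin libraries lay just below shControl and the inhibitor libraries just above it, and the fall with the hairpins was small (log2 change -0.11, SE 0.027, adjusted p = 0.0068). SDF2L1, which joins the J-protein DNAJB11 in a chaperone complex, had 169 and 182 TPM with sh1, 189 and 186 TPM with sh2 and 257 and 254 TPM with the inhibitor, against 229 and 244 TPM in shControl, and fell more with the hairpins (log2 change -0.38, SE 0.035, adjusted p = 2.6e-05). MANF, a secreted stress protein that binds BiP, had 150.4 and 152 TPM with sh1, 178 and 165 TPM with sh2 and 216 and 191 TPM with the inhibitor, against 195 and 199 TPM in shControl (log2 change -0.29, SE 0.048, adjusted p = 0.00099 for the hairpins). DNAJB11 itself had 183 and 177 TPM with sh1 and 191 and 195 TPM with sh2, against 196 and 204 TPM in shControl, a fall of small size (log2 change -0.10, SE 0.027, adjusted p = 0.013). DNAJC3, another J-protein, fell by 0.30 and HYOU1, the nucleotide exchange factor of BiP, by 0.090 on the log2 scale. DNAJB9, a J-protein that acts in degradation and holds ERN1 inactive, was the only gene of the system that did not pass (11.3 and 10.2 TPM with sh1 and 12.1 and 14.04 TPM with sh2, against 12.4 and 12.4 TPM in shControl, adjusted p = 0.44).

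The lectin chaperones hold glycoproteins by their sugar chains. CALR, the soluble lectin, had 1481 and 1483 TPM with sh1, 1516 and 1539 TPM with sh2 and 1866 and 1875 TPM with the inhibitor, against 1885 and 1906 TPM in shControl, and every hairpin library lay below every inhibitor and shControl library (log2 change -0.33, SE 0.020, adjusted p = 2.1e-06 for the hairpins). CANX, its membrane-bound relative, had 222 and 195 TPM with sh1 and 203 and 213 TPM with sh2, against 213 and 218 TPM in shControl, with overlapping groups (adjusted p = 0.52). Among the isomerases, which form and rearrange disulfide bonds, TXNDC5 had 716 and 697 TPM with sh1, 883 and 885 TPM with sh2 and 998 and 990.4 TPM with the inhibitor, against 1287 and 1315 TPM in shControl. The gene lies at chr6:7881517-7910814, its 4 groups did not overlap, and its fall with the hairpins was the largest of the 41 (log2 change -0.72, SE 0.020, adjusted p = 6.3e-08). A readthrough transcript, BLOC1S5-TXNDC5, shares 60.6% of its exon bases but averaged 1.20 TPM over all libraries. TXNDC11, a membrane thioredoxin-domain protein that works with EDEM2, had 35.5 and 34.03 TPM with sh1, 37.4 and 39.2 TPM with sh2 and 33.9 and 35.3 TPM with the inhibitor, against 48.04 and 48.9 TPM in shControl (log2 change -0.40, SE 0.041, adjusted p = 4.9e-05 for the hairpins). P4HB, the classical protein disulfide isomerase, had 608 and 616 TPM with sh1, 633 and 639 TPM with sh2 and 645 and 679.6 TPM with the inhibitor, against 775 and 770.1 TPM in shControl, and was lower in all 6 of those libraries than in shControl (log2 change -0.31, SE 0.024, adjusted p = 9.7e-06 for the hairpins). PDIA4 and PDIA6, further isomerases, fell by 0.26 and 0.16 on the log2 scale (adjusted p = 1.0e-05 and 0.0018).

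Some isomerases did not follow. PDIA3, the partner of both lectin chaperones, had 341 and 342 TPM with sh1, 357 and 369.7 TPM with sh2 and 338 and 322 TPM with the inhibitor, against 333 and 328 TPM in shControl, and was one of the 2 members higher with the hairpins, by a small margin (log2 change 0.093, SE 0.027, adjusted p = 0.017). Taken singly, it passed with sh2 (log2 change 0.14, adjusted p = 0.0072) and not with sh1 (0.049, adjusted p = 0.23). The processed pseudogene PDIA3P1 averaged 4.49 TPM, 1.31% of the level of PDIA3, and reads could be split between them. CRELD2, a stress-induced gene placed with the isomerases, had 88.5 and 88.7 TPM with sh1, 99.6 and 95.01 TPM with sh2 and 106 and 108 TPM with the inhibitor, against 90.5 and 96.4 TPM in shControl, and did not pass with the hairpins (adjusted p = 0.87). MZB1, a co-chaperone of HSP90B1 specific to B and plasma cells that helps assemble antibody, is encoded at chr5:139387480-139390081. It had 294 and 323 TPM with sh1, 368 and 370.3 TPM with sh2 and 321 and 322 TPM with the inhibitor, against 484 and 492 TPM in shControl. The 6 hairpin and inhibitor libraries all lay well below shControl, and its fall with the hairpins was the fourth largest among the members (log2 change -0.53, SE 0.034, adjusted p = 3.2e-06).

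Of the degradation genes, SEL1L, the adaptor that holds the ubiquitin ligase SYVN1 in its complex, had 12.7 and 9.74 TPM with sh1, 13.5 and 13.3 TPM with sh2 and 14.4 and 13.9 TPM with the inhibitor, against 17.99 and 19.4 TPM in shControl. It fell in both hairpin groups, with the widest spread between libraries in sh1 (log2 change -0.58, SE 0.087, adjusted p = 0.00058). HERPUD1, a membrane scaffold of the same complex, had 170.2 and 160.0 TPM with sh1, 178 and 173 TPM with sh2 and 176 and 176 TPM with the inhibitor, against 209 and 209.9 TPM in shControl (log2 change -0.30, SE 0.028, adjusted p = 2.9e-05 for the hairpins). SYVN1 itself had 67.5 and 62.3 TPM with sh1, 68.3 and 66.7 TPM with sh2 and 58.8 and 58.6 TPM with the inhibitor, against 68.7 and 70.9 TPM in shControl, and did not pass with the hairpins (adjusted p = 0.14). DERL1, DERL2 and DERL3 encode derlins, membrane proteins through which substrates leave the ER, and the derlins went separate ways. DERL1 had 37.4 and 34.3 TPM with sh1 and 41.6 and 39.7 TPM with sh2, against 48.3 and 47.9 TPM in shControl (log2 change -0.33, SE 0.050, adjusted p = 0.00060). DERL2 had 18.9 and 20.99 TPM with sh1, 17.1 and 17.8 TPM with sh2 and 20.3 and 21.7 TPM with the inhibitor, against 16.99 and 15.2 TPM in shControl, all hairpin libraries being above shControl, and was higher (log2 change 0.20, SE 0.061, adjusted p = 0.022). Taken singly, DERL2 passed with sh1 (log2 change 0.29, adjusted p = 0.0079) and not with sh2 (0.12, adjusted p = 0.24). DERL3, a derlin induced in secretory cells, had 69.96 and 65.8 TPM with sh1, 73.9 and 67.8 TPM with sh2 and 62.8 and 66.9 TPM with the inhibitor, against 70.6 and 81.8 TPM in shControl, and its hairpin libraries overlapped shControl (adjusted p = 0.12). SYVN1 shares 7.24% of its exon bases with FAU on the same strand, which averaged 2385 TPM, and reads of these genes could be split between them. DERL3 shares 77.0% of its exon bases with SMARCB1 on the opposite strand, which averaged 186.5 TPM. The libraries were stranded per the labels, but whether counting used the strand is not stated, so reads of these genes cannot be told apart with certainty. Of the EDEM genes, whose products trim mannose from misfolded glycoproteins, EDEM1 fell by 0.20 on the log2 scale at 8.19 and 7.27 TPM with sh1 and 8.07 and 8.10 TPM with sh2, against 9.13 and 9.30 TPM in shControl, while EDEM2 and EDEM3 did not pass (adjusted p = 0.59 and 0.82).

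The sensor ERN1, a kinase and RNase that splices XBP1 mRNA, is encoded at chr17:64039142-64130819. It had 4.25 and 3.44 TPM with sh1, 4.85 and 4.66 TPM with sh2 and 4.83 and 4.72 TPM with the inhibitor, against 5.89 and 6.03 TPM in shControl. All 6 hairpin and inhibitor libraries lay below shControl (log2 change -0.40, SE 0.070, adjusted p = 0.0014 for the hairpins). EIF2AK3, the kinase also called PERK that slows translation under stress, had 13.03 and 10.5 TPM with sh1, 12.2 and 13.4 TPM with sh2 and 14.9 and 14.6 TPM with the inhibitor, against 15.3 and 15.8 TPM in shControl (log2 change -0.32, SE 0.075, adjusted p = 0.0066 for the hairpins). ATF6, which is carried to the Golgi and cleaved into a transcription factor, had 20.1 and 17.2 TPM with sh1, 18.6 and 19.5 TPM with sh2 and 19.1 and 18.2 TPM with the inhibitor, against 19.7 and 20.3 TPM in shControl, and did not pass with the hairpins (log2 change -0.083, SE 0.059, adjusted p = 0.28). At these levels the added 1 TPM makes the log2 changes of ERN1 smaller than the plain ratios.

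Of the translocation genes, SEC61A1 encodes the channel itself, SEC61B and SEC61G its small subunits. SEC61A1 had 189 and 188 TPM with sh1, 204 and 208 TPM with sh2 and 286 and 298 TPM with the inhibitor, against 256 and 259 TPM in shControl, hairpin libraries below and inhibitor libraries above shControl (log2 change -0.38, SE 0.024, adjusted p = 2.7e-06 for the hairpins). SEC61B had 813 and 784 TPM with sh1, 897 and 868 TPM with sh2 and 1044 and 1048 TPM with the inhibitor, against 985 and 1006 TPM in shControl (log2 change -0.25, SE 0.027, adjusted p = 8.2e-05 for the hairpins), and SEC61G fell by 0.28 on the log2 scale, with 737 and 649 TPM with sh1 and 805 and 852 TPM with sh2, against 892 and 947 TPM in shControl. SEC63, which recruits BiP to the channel, fell by 0.23, while its partner SEC62 did not pass (adjusted p = 0.18). SSR1 to SSR4 encode the translocon-associated protein complex, and its subunits did not move as 1 unit. SSR3 had 83.1 and 79.3 TPM with sh1 and 95.5 and 93.3 TPM with sh2, against 115 and 112 TPM in shControl (log2 change -0.37, SE 0.038, adjusted p = 5.5e-05) and SSR1 fell by 0.24. SSR4 had 1230.1 and 1292 TPM with sh1 and 1277 and 1261 TPM with sh2, against 1283 and 1299 TPM in shControl and SSR2 had 904 and 926 TPM with sh1 and 919 and 945 TPM with sh2, against 969.9 and 965 TPM in shControl, and neither passed (adjusted p = 0.39 and 0.055). SEC24D, a cargo-selecting subunit of the COPII coat encoded at chr4:118722823-118838683, had 16.1 and 14.3 TPM with sh1, 17.6 and 17.7 TPM with sh2 and 22.9 and 23.1 TPM with the inhibitor, against 25.6 and 26.8 TPM in shControl. Its groups did not overlap, and its fall with the hairpins was second to that of TXNDC5 (log2 change -0.65, SE 0.046, adjusted p = 6.0e-06). SEC23B, another coat subunit, had 38.5 and 34.9 TPM with sh1 and 40.1 and 38.7 TPM with sh2, against 42.5 and 43.3 TPM in shControl (log2 change -0.17, SE 0.045, adjusted p = 0.011).

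Several of the smaller calls were lost when 1 library was left out, which also lowers the precision of the fit. The log2 changes of these genes kept their sign. Without shControl replicate 2 the hairpin calls of DERL2, EIF2AK3, DNAJB11, SEC23B, SEC61G, PDIA3, EDEM1 and HYOU1 were lost, with log2 changes of 0.13, -0.30, -0.074, -0.16, -0.24, 0.083, -0.19 and -0.093 in that order, and without shControl replicate 1 that of HSPA5 was lost (-0.11). The higher calls of DERL2 and PDIA3 were lost without sh2 replicate 2 too. The losses named here are not all of those seen when 1 library was left out. Neither higher call, DERL2 nor PDIA3, held under median-of-ratios or quantile scaling, with log2 changes of 0.17 and 0.15 for DERL2 and of 0.057 and 0.089 for PDIA3.

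**Figure D2:**
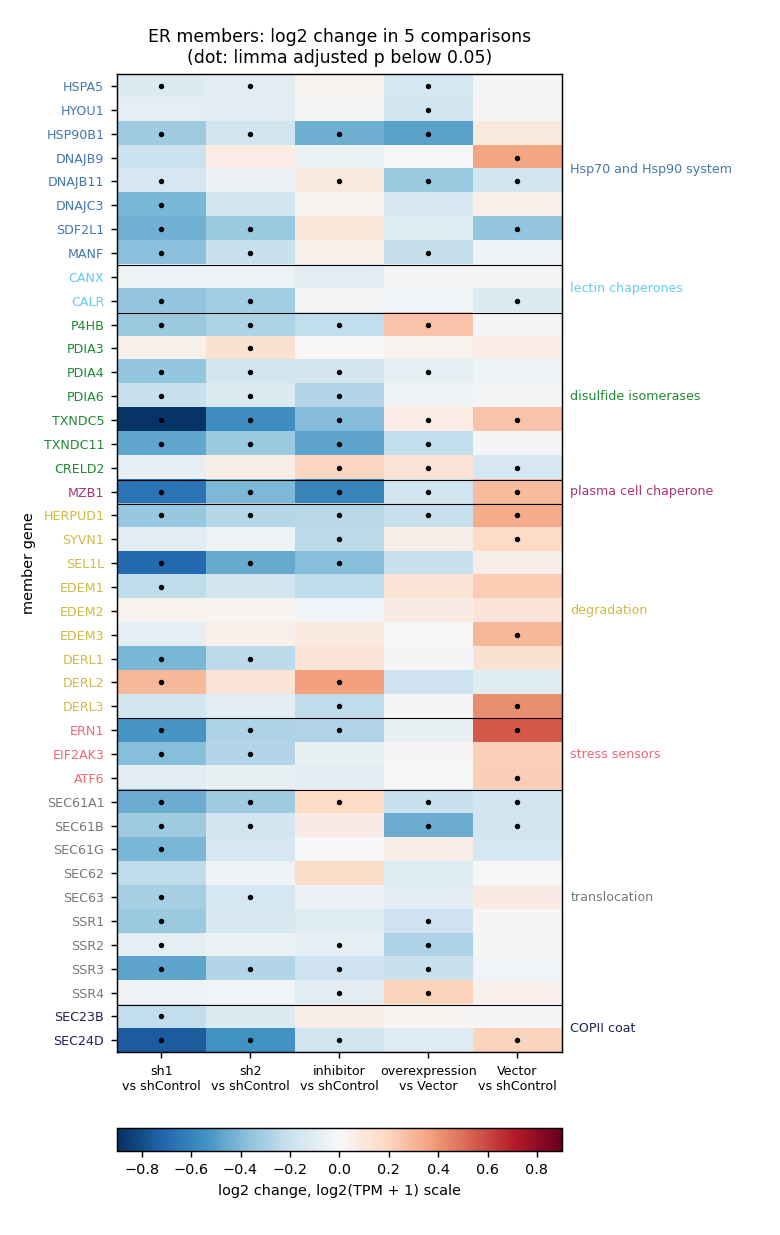
Log2 change of each of the 41 members (rows, by role) in 5 comparisons (columns), on the log2(TPM + 1) scale, with a dot where the adjusted p was below 0.05. Both hairpin columns are mostly blue (lower), with 28 and 21 members lower, while the inhibitor and overexpression columns hold both colours.

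Taken one hairpin at a time, 28 members were lower and 1, DERL2, was higher with sh1 (21.3% and 23.7% of all genes tested), and 21 were lower and 1, PDIA3, was higher with sh2 (13.4% and 22% of all genes tested, 62.2% of the calls being higher, and 47.8% under median-of-ratios scaling). The hairpins share their shControl libraries. The members' median log2 change was -0.32 with sh1 and -0.16 with sh2. Set directly against sh1, 3 members were higher with sh2 and 0 were lower, while 1.16% of all genes tested were higher and 0.385% lower by limma. At an unadjusted p below 0.05 23 members were higher and 1 was lower, while 13% of all genes tested were higher and 5.06% lower. Over all genes 75.1% of the calls were higher, and 52.6% under median-of-ratios scaling. The 3 were TXNDC5 (log2 difference 0.32, SE 0.023, adjusted p = 0.00047), MZB1 (0.26, SE 0.039, adjusted p = 0.020) and PDIA4 (0.17, SE 0.024, adjusted p = 0.017). PDIA4 had 340.3 and 342 TPM with sh2, against 304 and 301 TPM with sh1. In all 3 genes both sh2 libraries lay above both sh1 libraries. STK17B itself did not pass in this comparison, at 14.7 and 14.5 TPM with sh2, against 12.7 and 10.9 TPM with sh1 (log2 difference 0.29, adjusted p = 0.12). Under median-of-ratios scaling and without the variance trend TXNDC5 alone passed, and 0 of the 41 passed when sh1 and sh2 alone were fitted. In that last fit 4 of all 12731 genes tested were higher and 1 lower. The call of MZB1 was lost without either sh2 library (0.26 without replicate 1 and 0.25 without replicate 2), and that of PDIA4 without either sh2 library or sh1 replicate 2 (0.17 to 0.18).

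**Figure D3:**
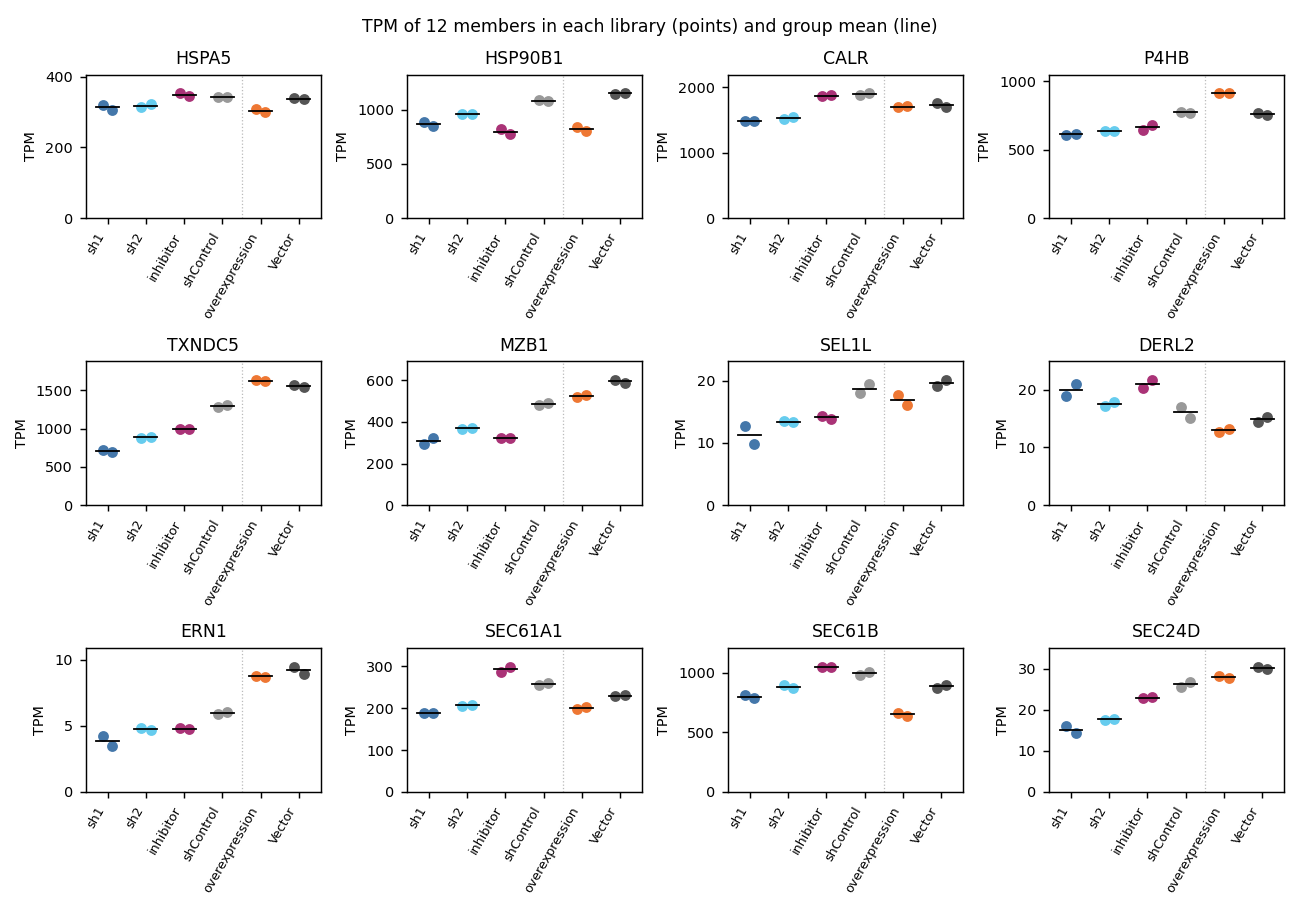
TPM of 12 members in each library (points; axes start at 0) with the mean of each group of 2 (line). TXNDC5 and SEC24D are lowest with sh1 and sh2, MZB1 is low with the hairpins and the inhibitor, and SEC61A1 is highest with the inhibitor.

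The inhibitor gave a mixed picture among the same genes. Relative to shControl 16 members were lower and 4 were higher, while 11.8% of all genes tested were lower and 28% were higher. Over all genes 70.3% of the calls were higher, and 55.9% under median-of-ratios scaling. The members' median log2 change was -0.065, against 0.079 over all genes. The isomerases accounted for 5 of the 16 falls, the degradation genes for 4 and the translocation genes for 3, and only 1 of 8 genes of the Hsp70 and Hsp90 system was lower. MZB1 fell most, at 321 and 322 TPM with the inhibitor, against 484 and 492 TPM in shControl (log2 change -0.60, SE 0.039, adjusted p = 6.1e-06). TXNDC11 (33.9 and 35.3 TPM, log2 change -0.47, SE 0.047, adjusted p = 7.7e-05), HSP90B1 (817 and 777 TPM, log2 change -0.44, SE 0.032, adjusted p = 1.3e-05) and TXNDC5 (998 and 990.4 TPM, log2 change -0.39, SE 0.023, adjusted p = 3.1e-06) followed. HSP90B1 was the gene of the Hsp70 and Hsp90 system that fell, while its partner in the lumen HSPA5 did not pass (log2 change 0.029, SE 0.031, adjusted p = 0.50). SEL1L (log2 change -0.38, SE 0.10, adjusted p = 0.015) and SYVN1 (log2 change -0.25, SE 0.046, adjusted p = 0.0025), both parts of the ligase complex, were lower, as was HERPUD1 (log2 change -0.25, SE 0.032, adjusted p = 0.00034).

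P4HB, PDIA4 and PDIA6 fell by 0.22, 0.16 and 0.26 on the log2 scale with the inhibitor, with 348 and 342 TPM of PDIA4 against 387 and 385 TPM in shControl and 355 and 334 TPM of PDIA6 against 414 and 412 TPM. Of the sensors ERN1 was lower (log2 change -0.27, SE 0.081, adjusted p = 0.026), while EIF2AK3 and ATF6 did not pass (adjusted p = 0.59 and 0.29). Of the translocon-associated complex SSR2, SSR3 and SSR4 were lower, by 0.084, 0.19 and 0.10 (adjusted p = 0.046, 0.0084 and 0.021). The 4 members that rose were DERL2 (log2 change 0.37, SE 0.071, adjusted p = 0.0031), CRELD2 (log2 change 0.19, SE 0.044, adjusted p = 0.0073), the channel gene SEC61A1 (log2 change 0.18, SE 0.028, adjusted p = 0.00086) and DNAJB11 (log2 change 0.090, SE 0.031, adjusted p = 0.043), the last at 216 and 210.1 TPM with the inhibitor, against 196 and 204 TPM in shControl. CALR, at 1866 and 1875 TPM with the inhibitor, against 1885 and 1906 TPM in shControl, did not pass (adjusted p = 0.55), and neither did SDF2L1 or MANF (adjusted p = 0.052 and 0.56). ERN1 lost its call without any 1 of the 4 libraries (-0.28, -0.26, -0.28 and -0.26), SEL1L without inhibitor replicate 2 (-0.36) or shControl replicate 2 (-0.33), CRELD2 without shControl replicate 1 (0.15) and DNAJB11 without either inhibitor library or shControl replicate 1 (0.072, 0.11 and 0.064). Further lower calls, not named here, were also lost when any 1 of these libraries was left out. Under median-of-ratios scaling CRELD2 and DNAJB11 also lost their calls (0.13 and 0.026).

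The inhibitor libraries were also set directly against the mean of the hairpins, a comparison that does not use shControl. In it 22 members were higher and 5 were lower, while 30.9% of all genes tested were higher and 21.6% lower, and the members' median log2 difference was 0.13, against 0.036 over all genes. Quantile normalization gave 15 members higher and 11 lower, with 3526 of all 12731 genes tested higher and 2986 lower. Over all genes 54.1% of the calls were then higher, in place of 58.8%. The balance of the members' calls thus depended on the scaling. SEC61A1 differed most, with 286 and 298 TPM with the inhibitor, against 189 and 188 TPM with sh1 and 204 and 208 TPM with sh2 (log2 change 0.56, SE 0.024, adjusted p = 2.3e-07). SDF2L1 (log2 change 0.49, SE 0.035, adjusted p = 3.9e-06), SEC24D (log2 change 0.47, SE 0.046, adjusted p = 2.8e-05) and DERL1 (log2 change 0.44, SE 0.050, adjusted p = 6.2e-05) came next, DERL1 with 54.7 and 49.9 TPM with the inhibitor. For each of these 4 genes, both inhibitor libraries lay above all 4 hairpin libraries. By role, 6 of 8 genes of the Hsp70 and Hsp90 system, 7 of 9 translocation genes and both coat genes were higher with the inhibitor. The 5 that were lower were HSP90B1 (log2 change -0.19, SE 0.028, adjusted p = 0.00034), SYVN1 (log2 change -0.17, SE 0.039, adjusted p = 0.0054), PDIA6, PDIA3 and SSR4, the last 3 by 0.10, 0.094 and 0.072 on the log2 scale. MZB1 was low in both and did not pass (log2 difference -0.068, SE 0.034, adjusted p = 0.12). Without inhibitor replicate 2 the calls of PDIA3, PDIA6, SSR4, P4HB and HYOU1 were lost (-0.059, -0.055, -0.088, 0.048 and 0.076), and without inhibitor replicate 1 those of SEC62, SEC63 and SSR1 were lost (0.27, 0.12 and 0.053). That of EIF2AK3 was lost without either inhibitor library (0.24 and 0.27).

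**Figure D4:**
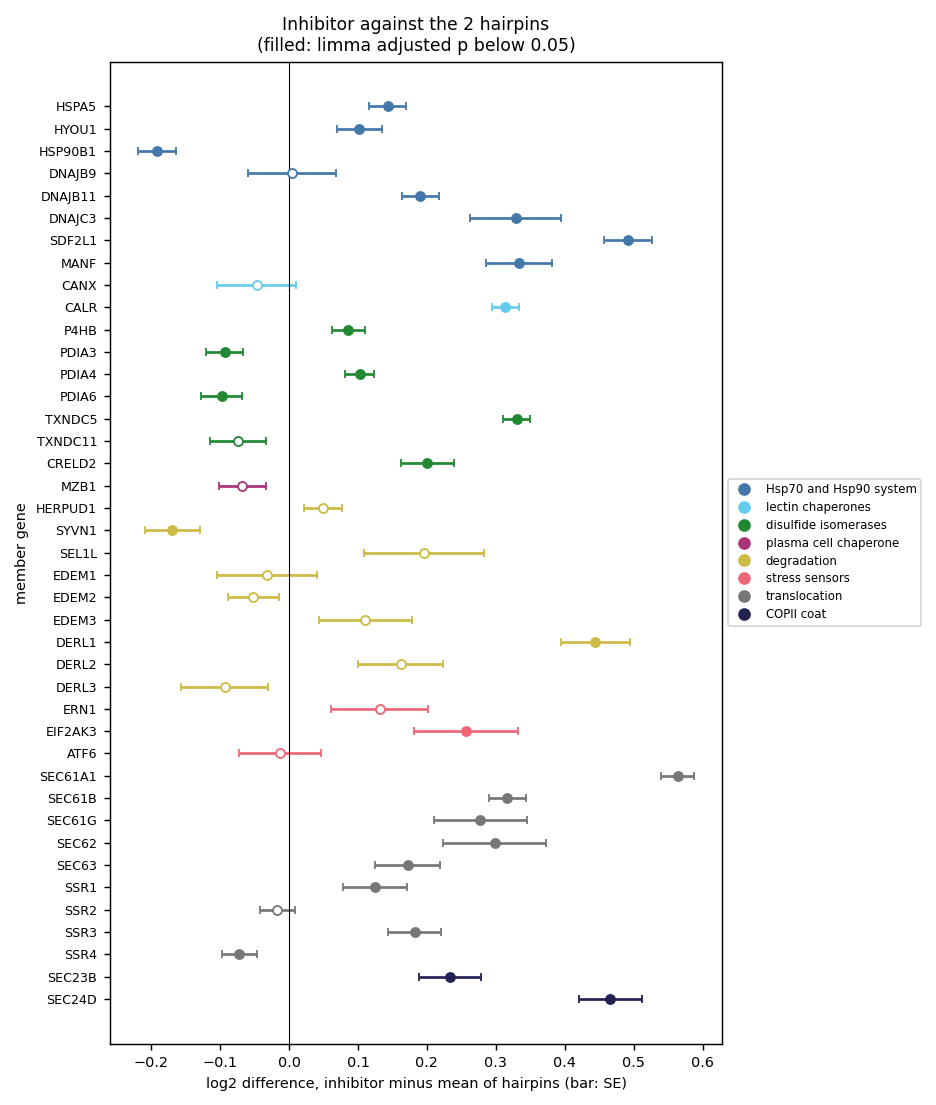
Log2 difference of each member, inhibitor minus the mean of the hairpins (points, coloured by role; bars are 1 SE), filled where the adjusted p was below 0.05. Most translocation genes and chaperones lie right of 0, with SEC61A1 farthest at 0.56, and HSP90B1 lies farthest left at -0.19.

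With overexpression of STK17B some of the chaperone and translocation genes were lower than with Vector, and the isomerase P4HB was higher. Of 41 members 14 were lower and 4 were higher, while 10.3% of all genes tested were lower and 26.6% were higher. The members' median log2 change was -0.086, against 0.081 over all genes. Of the Hsp70 and Hsp90 system 5 of 8 genes were lower, of the translocation genes 5 of 9 were lower and 1 was higher, and of the isomerases 3 of 7 were higher and 2 lower. None of the 3 sensors and neither coat gene passed in either direction.

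HSP90B1 had 842 and 804 TPM with overexpression, against 1148 and 1151 TPM with Vector, the largest fall with overexpression among the members (log2 change -0.48, SE 0.032, adjusted p = 9.4e-06). HSPA5 had 308 and 299 TPM with overexpression, against 339.6 and 337 TPM with Vector, lower by a smaller amount (log2 change -0.16, SE 0.031, adjusted p = 0.0040). DNAJB11 had 138 and 141 TPM with overexpression, against 177 and 176 TPM with Vector (log2 change -0.34, SE 0.031, adjusted p = 5.6e-05). In all 3 chaperone genes both overexpression libraries lay below both Vector libraries. MANF had 163 and 167 TPM with overexpression, against 195 and 189 TPM with Vector (log2 change -0.22, SE 0.055, adjusted p = 0.013), and HYOU1 fell by 0.18 on the log2 scale. CALR had 1698 and 1708 TPM with overexpression, against 1765 and 1697 TPM with Vector and did not pass (adjusted p = 0.47).

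Of the translocation genes SEC61B had 665 and 634 TPM with overexpression, against 873 and 896 TPM with Vector (log2 change -0.44, SE 0.031, adjusted p = 1.2e-05), SEC61A1 had 198 and 202 TPM with overexpression, against 229 and 231 TPM with Vector (log2 change -0.20, SE 0.028, adjusted p = 0.00054), and SSR2 had 804 and 798 TPM with overexpression, against 986 and 960.1 TPM with Vector (log2 change -0.28, SE 0.029, adjusted p = 0.00012). SSR4 went the other way, with 1502 and 1559 TPM with overexpression, against 1336 and 1316 TPM with Vector (log2 change 0.21, SE 0.029, adjusted p = 0.00062), so that subunits of 1 complex stood on opposite sides of Vector. Among the isomerases P4HB had 909.6 and 911 TPM with overexpression, against 770.3 and 752 TPM with Vector, the largest rise (log2 change 0.26, SE 0.027, adjusted p = 0.00012). CRELD2 had 88.5 and 95.3 TPM with overexpression, against 84.5 and 83.2 TPM with Vector (log2 change 0.13, SE 0.044, adjusted p = 0.043), and TXNDC5 had 1634 and 1624 TPM with overexpression, against 1571 and 1542 TPM with Vector (log2 change 0.066, SE 0.023, adjusted p = 0.045), both close to the threshold. TXNDC11 had 39.3 and 42.5 TPM with overexpression, against 47.4 and 48.3 TPM with Vector, and was lower (log2 change -0.22, SE 0.047, adjusted p = 0.0053). PDIA4 was lower by 0.086 on the log2 scale.

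MZB1 had 520.3 and 530.1 TPM with overexpression, against 601 and 589 TPM with Vector (log2 change -0.18, SE 0.039, adjusted p = 0.0059) and HERPUD1 had 226 and 229.8 TPM with overexpression, against 265 and 262 TPM with Vector (log2 change -0.21, SE 0.032, adjusted p = 0.00095), the only degradation gene that passed. DERL3 had 97.2 and 105 TPM with overexpression, against 103 and 101 TPM with Vector, with overlapping groups (adjusted p = 0.95). SEL1L had 17.7 and 16.1 TPM with overexpression, against 19.1 and 20.1 TPM with Vector and DERL2 had 12.7 and 13.2 TPM with overexpression, against 14.4 and 15.3 TPM with Vector, and neither passed (adjusted p = 0.15 and 0.070). The sensors stayed near their Vector levels. ERN1 had 8.78 and 8.70 TPM with overexpression, against 9.44 and 8.94 TPM with Vector, EIF2AK3 had 18.7 and 17.8 TPM with overexpression, against 18.6 and 17.7 TPM with Vector and ATF6 had 24.3 and 22.9 TPM with overexpression, against 23.4 and 23.6 TPM with Vector, with adjusted p of 0.57, 0.96 and 0.96 in that order. SEC24D had 28.2 and 27.8 TPM with overexpression, against 30.5 and 30.1 TPM with Vector and did not pass (adjusted p = 0.13).

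Under median-of-ratios scaling only 1 member was higher with overexpression and 22 were lower, with TXNDC5 at -0.045 (turned), CRELD2 at 0.021 and SSR4 at 0.10, none of these past the threshold, and 43.2% of the calls over all genes were then higher in place of 72.1%. Among all 12731 genes tested 1987 were then higher and 2614 lower, in place of 3381 and 1308. The calls of TXNDC5 were lost without any 1 of the 4 libraries (0.053 to 0.079), those of CRELD2 without Vector replicate 1 (0.14), Vector replicate 2 (0.12) or overexpression replicate 2 (0.078), that of MANF without Vector replicate 1 (-0.19) or overexpression replicate 1 (-0.20), and that of PDIA4 without Vector replicate 1 (-0.065) or overexpression replicate 2 (-0.073).

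The control groups differed from each other in these genes. Between Vector and shControl 10 members were higher and 6 were lower with Vector, while 21.4% of all genes tested were higher and 7.86% lower, and the members' median log2 change was 0.013, against 0.085 over all genes. Under median-of-ratios scaling 7 members were higher and 12 lower, and the members' median turned to -0.089. The median over all genes was then -0.0035, with 1659 of the 12731 genes tested higher and 2200 lower. Over all genes 73.1% of the calls were higher, and 43% under median-of-ratios scaling. Of the 10 genes higher with Vector 6 were sensors or degradation genes. ERN1 had 9.44 and 8.94 TPM with Vector, against 5.89 and 6.03 TPM in shControl (log2 change 0.55, SE 0.081, adjusted p = 0.0012), and DERL3 had 103 and 101 TPM, against 70.6 and 81.8 TPM (log2 change 0.42, SE 0.074, adjusted p = 0.0030). DNAJB9 (log2 change 0.36, SE 0.074, adjusted p = 0.0064), HERPUD1 (log2 change 0.33, SE 0.032, adjusted p = 0.00012) and MZB1 (log2 change 0.29, SE 0.039, adjusted p = 0.00077) were higher too, as were TXNDC5, SEC24D, SYVN1, ATF6 and EDEM3, by 0.26, 0.20, 0.18, 0.22 and 0.30 on the log2 scale. SDF2L1 had 184 and 185 TPM with Vector, against 229 and 244 TPM in shControl, the largest fall (log2 change -0.36, SE 0.040, adjusted p = 0.00029), and DNAJB11, SEC61A1, SEC61B, CRELD2 and CALR were lower by 0.13 to 0.18. ERN1 thus differed more in size between these controls than with the hairpins (-0.40) or the inhibitor (-0.27), a contrast that was not tested. The control columns carry the numbers 1 and 9, which were matched to library numbers in the labels, an inference. With the control columns exchanged 31 members were lower and 3 were higher with the hairpins, 22 were lower and 7 higher with the inhibitor, and 15 were lower and 14 higher with overexpression. Over all 12731 genes tested 3748 were then lower and 2369 higher with the hairpins, and 3434 and 3305 with the inhibitor. With overexpression 1747 of them were lower and 5721 higher. The call of ATF6 was lost without any 1 of the 4 control libraries (0.20 to 0.24), those of SEC24D and SYVN1 without shControl replicate 1 (0.17 and 0.15) or either Vector library (0.19 and 0.21 for SEC24D, 0.16 and 0.20 for SYVN1), that of DNAJB9 without Vector replicate 2 (0.32), and that of EDEM3 without Vector replicate 2 (0.24) or either shControl library (0.27 and 0.32).

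The effects of knockdown and of overexpression, each against its own control, share no library and could be set against each other gene by gene. Of the 41 members 28 had the same sign in both, 26 of them below 0 in both, and across the members Pearson's r was 0.16 and Spearman's rho 0.29, as a description across genes that are not independent. HSP90B1, HSPA5, DNAJB11, MANF, HYOU1, TXNDC11, PDIA4, MZB1, HERPUD1, SEC61A1, SEC61B, SSR1 and SSR3 were called lower in both. These 13 are 31.7% of the members, against 5.1% of all genes tested. With the control columns exchanged MZB1 and HERPUD1 lay above their control with overexpression, and DNAJB11 with the hairpins. As given above, the calls of HSPA5, HYOU1 and DNAJB11 with the hairpins could be lost without 1 library. So could those of MANF and PDIA4 with overexpression. The same sign in both was found for 68.3% of the members and 62.5% of all genes tested, and values below 0 in both for 63.4% of the members and 21.8% of all genes tested. The difference between the effects passed for 17 members, with 12 lower and 5 higher under knockdown than under overexpression (18.5% and 11.4% of all genes tested, 38% of the calls being higher, and 55.6% under median-of-ratios scaling). Under that scaling 6 members were lower and 8 higher, with 1724 of all 12731 genes tested lower and 2159 higher. TXNDC5 differed most (log2 difference -0.78, SE 0.030, adjusted p = 3.5e-07), with P4HB (-0.57, adjusted p = 8.2e-06) and SEC24D (-0.54, adjusted p = 0.00049) after it. P4HB and TXNDC5 were lower with the hairpins and higher with overexpression, where TXNDC5 turned to -0.045 under median-of-ratios scaling. MZB1 (-0.35) and HSP90B1 (0.23) were lower in both but by different amounts, MZB1 more with the hairpins and HSP90B1 more with overexpression. DNAJB11, SSR2 and SEC61B differed by 0.24, 0.21 and 0.20, being farther below their control with overexpression, and DERL2 differed by 0.39, being above its control with the hairpins and below it with overexpression. The call of ERN1 for this difference (-0.34) was lost without any 1 of 8 libraries (-0.37 to -0.30), that of DERL2 without shControl replicate 2 (0.31) or Vector replicate 2 (0.34).

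**Figure D5:**
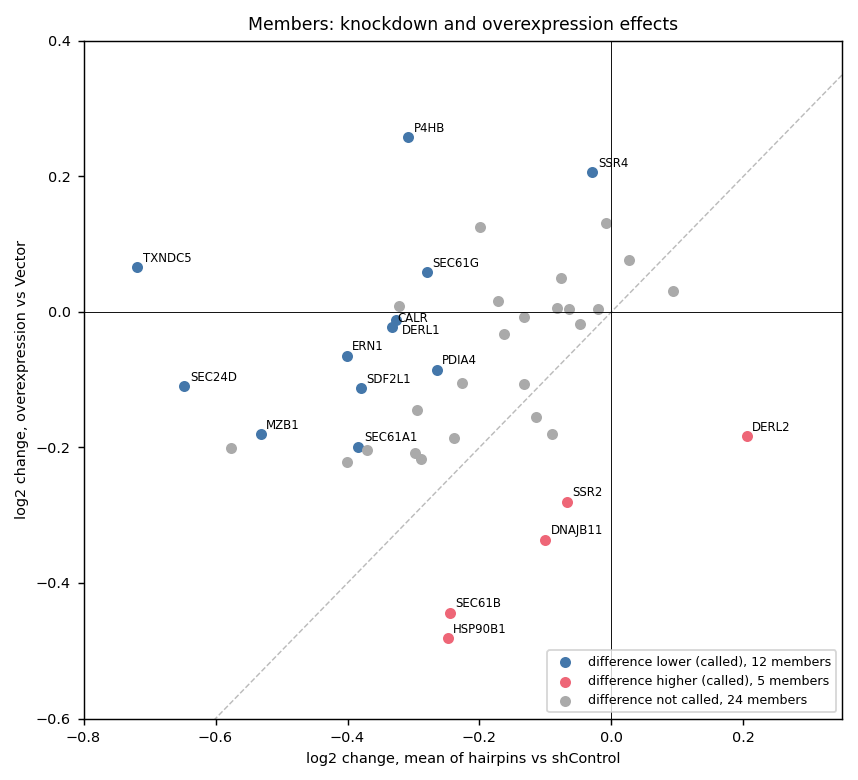
Log2 change of each member with the hairpins against shControl (horizontal axis) and with overexpression against Vector (vertical axis), coloured by the test of the difference between the 2 effects; the dashed line marks equal changes. Most points lie left of 0, 26 of 41 are below 0 on both axes, and TXNDC5 and P4HB lie left of and above 0.

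Other genes of the same pathways, from lists by role, moved as follows. Over all genes tested 26.2% were higher and 20.2% lower with the hairpins, 28% and 11.8% with the inhibitor, and 26.6% and 10.3% with overexpression. Each count below is to be read beside these shares. Of 23 further genes of COPII transport and retrieval 10 were lower and 0 were higher with the hairpins, with the retrieval receptors KDELR2 (27.8 and 28.3 TPM with sh1 and 34.95 and 34.3 TPM with sh2, against 47.1 and 48.7 TPM in shControl, log2 change -0.60, SE 0.030, adjusted p = 7.9e-07) and KDELR1 (log2 change -0.38, SE 0.042, adjusted p = 8.2e-05) in the lead. These receptors return chaperones such as BiP to the ER. With the inhibitor 4 of the 23 were higher and 3 lower, KDELR1 among the lower (-0.50), and with overexpression 3 were higher and 7 lower, KDELR2 among them (-0.33). Of 29 further targeting and translocation genes 4 were higher and 13 lower with the hairpins, 7 higher and 2 lower with the inhibitor, and 2 higher and 8 lower with overexpression. In that list SEC11C, a catalytic subunit of signal peptidase, was lower in all 3 (-0.57, -0.32 and -0.26), while SEC11A, the alternative subunit, was higher with the hairpins (0.36). Of 25 further folding enzymes tested 5 were higher and 9 lower with the hairpins, 4 higher and 7 lower with the inhibitor, and 6 higher and 4 lower with overexpression, the isomerase relative TMX4 being higher in all 3 (0.79, 0.52 and 0.31). PDIA5 was lower by 0.78 and PRDX4, an ER peroxidase, by 0.48 with the hairpins. Of 21 further degradation genes 6 were higher and 7 lower with the hairpins, 8 higher and 2 lower with the inhibitor, and 8 higher and 5 lower with overexpression. MAN1B1, a mannosidase, was higher in all 3 (0.38, 0.20 and 0.49).

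Of 15 transcription factors and targets of the unfolded protein response 4 were higher and 7 lower with the hairpins. With the inhibitor 4 were higher and 6 lower, and with overexpression 0 higher and 7 lower (limma, 72.1% of calls over all genes being higher there). Of all genes tested 26.2% were higher and 20.2% lower with the hairpins, 28% and 11.8% with the inhibitor, 26.6% and 10.3% with overexpression. XBP1, the factor whose mRNA ERN1 splices, had 845 and 824 TPM with sh1, 967 and 968 TPM with sh2 and 881 and 844 TPM with the inhibitor, against 1115 and 1121 TPM in shControl (log2 change -0.31, SE 0.022, adjusted p = 6.1e-06 for the hairpins and log2 change -0.37, SE 0.026, adjusted p = 8.8e-06 for the inhibitor). It had 1081 and 1059 TPM with overexpression, against 1264 and 1280.0 TPM with Vector (log2 change -0.25, SE 0.026, adjusted p = 0.00011). These values are gene totals and do not separate spliced from unspliced XBP1. CREB3L2, a membrane-bound factor of secretory cells, was lower with the hairpins (log2 change -0.73, SE 0.050, adjusted p = 4.8e-06), while DDIT3, the stress factor CHOP, was higher, at 16.6 and 18.9 TPM with sh1 and 16.5 and 16.7 TPM with sh2, against 11.1 and 11.1 TPM in shControl (log2 change 0.59, SE 0.12, adjusted p = 0.0027). The other control, Vector, had 20.7 and 21.5 TPM of DDIT3, above every hairpin library. DDIT3 thus differed between the controls as well, and its hairpin call depends on which control is used. With overexpression ATF4, the factor acting after EIF2AK3, had 476 and 494 TPM with overexpression, against 670.5 and 637 TPM with Vector (log2 change -0.43, SE 0.033, adjusted p = 2.0e-05). The joining chain of secreted antibody, listed as IGJ, had 4092 and 3813 TPM with sh1, 4164 and 4265 TPM with sh2 and 3469 and 3239 TPM with the inhibitor, against 4854 and 4850.0 TPM in shControl and was lower with the hairpins (-0.25) and the inhibitor (-0.53) and higher with overexpression (0.17). Of the 11 plasma cell and KMS11 markers 1 was higher and 9 lower with the hairpins, with summed levels of 5972 to 6733 TPM, against 7837 to 7862 TPM in shControl, 2 were higher and 9 lower with the inhibitor (5757 to 5985 TPM), and 4 were higher and 5 lower with overexpression (8435 to 8772 TPM, against 7821 to 8360 TPM with Vector). SDC1, the plasma cell surface marker, had 25.7 and 24.1 TPM with sh1, 33.95 and 34.5 TPM with sh2 and 12.7 and 12.4 TPM with the inhibitor, against 57.6 and 59.4 TPM in shControl. The part of these markers in the members' changes was not tested.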

How the data were processed

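Values are TPM as deposited by the authors, 1 table for all 12 libraries, each summing to the same total, so read depth is unknown and no count test was run. The submitters' processing notes list RSEM (version 1.3.1), DESeq2 (version 1.4.5), Bowtie2 (version 2.3.4.3), HISAT and the build GRCh38.p13 without giving their roles, and the libraries were poly(A)-selected and stranded per the labels' protocols. Control columns numbered 1 and 9 were matched to shControl and Vector by the labels' library numbers, an inference, and 0 columns were left unmapped.

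The 12731 of 29607 genes that reached 1 TPM in 2 or more libraries were fitted as log2(TPM + 1) with limma 3.58.1 (R 4.3.3, trend, 1 mean per group over all 6 groups). P-values are two-sided and adjusted by Benjamini-Hochberg over all genes tested, with calls at an adjusted p below 0.05. The step was tested on simulated data. Fold changes on this scale understate those of low genes. The knockdown is the mean of sh1 and sh2. Alternatives changed the pseudocount, the filter, the scaling, the variance trend, the groups fitted, a replicate block, the control columns and each library in turn. A gene was named where its call in knockdown, inhibitor or overexpression was among the 6 largest per direction at a mean of at least 5 TPM, or, for the other lists, among the 4 largest, besides 8 members always described. Further members were given by their values. The members and lists were chosen with earlier results of these data known. Sequences came from RefSeq (GRCh38.p14) and gene positions from GENCODE 29. Older symbols were matched through RefSeq synonyms, and of 15 listed immunoglobulin symbols 1 was found. The others were not analysed here.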

Additional observations from a re-analysis of the deposited data

Results flagged for a closer look

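The hairpins differed from each other by a direct test in 3 members, each higher with sh2. TXNDC5 had 883 and 885 TPM with sh2, against 716 and 697 TPM with sh1, a log2 difference of 0.32 (limma, adjusted p = 0.00047). MZB1 had 368 and 370.3 TPM with sh2, against 294 and 323 TPM with sh1, a log2 difference of 0.26 (adjusted p = 0.020). PDIA4 had 340.3 and 342 TPM with sh2, against 304 and 301 TPM with sh1, a log2 difference of 0.17 (adjusted p = 0.017). All 3 were lower in both hairpin groups than in shControl. When sh1 and sh2 alone were fitted 0 members passed, and under median-of-ratios scaling or without the variance trend TXNDC5 alone did. With sh1 and sh2 alone, 4 of all 12731 genes tested were higher and 1 lower. MZB1 was also lost without a filter on low values.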

How the results depend on the processing

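The count of 28 members lower with the hairpins stayed within 1.5 times under every alternative run, at 22 to 30 when 1 library was left out. Over the members' single results and alternatives 4587 kept their side of the threshold, 308 lost a call, 168 gained one and 21 turned. A change of sign was counted as a turn only where the main or the alternative fit passed. The 4587 can therefore hold uncalled results that changed sign. Depth is unknown and 2 libraries a group limit the precision. Quantile normalization put the median change of all genes at -0.020 with overexpression and -0.019 for Vector against shControl, in place of 0.081 and 0.085, and the other scaling shifts were under 0.1. The share of higher calls over all genes under quantile normalization was 51.9% with the inhibitor, 46.5% with overexpression, 47% with sh2, 48.8% for Vector against shControl, 54.1% for sh2 against sh1 and 52% for the difference of knockdown and overexpression. The cause of the moves below was not tested.

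With the control columns exchanged the median member change was -0.13 with the inhibitor and -0.032 with overexpression, 7 members were higher with the inhibitor, 14 with overexpression and 3 with sh2, and 19 were lower for the difference of knockdown and overexpression. Over all 12731 genes 3305 were then higher with the inhibitor, 5721 with overexpression and 2032 with sh2, and 5763 were lower for the difference. The exchange only turns the sign of Vector against shControl, so no value is given for it. Under it CALR with the inhibitor turned to 0.11, EDEM3 to -0.21 with the inhibitor and -0.25 with sh2, CRELD2 to 0.15 with the hairpins, -0.024 with overexpression and 0.17 for the difference, and DNAJB11 to 0.079 with the hairpins, 0.030 with sh1 and 0.13 with sh2. DNAJB9 turned to -0.29 and SDF2L1 to 0.027 with sh2, and DERL3 to 0.41, ERN1 to 0.48, HERPUD1 to 0.12 and MZB1 to 0.11 with overexpression. For the difference SDF2L1 turned to 0.45 and SEC61A1 to 0.14.

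Median-of-ratios scaling gave median changes of -0.27 with the hairpins, -0.13 with the inhibitor, -0.20 with overexpression and -0.089 for Vector against shControl, the last turned. The medians over all genes were then -0.0017, 0.024, -0.014 and -0.0035 in that order. This scaling gave 0 members higher with the hairpins, 2 with the inhibitor, 1 with overexpression, 0 with sh2, 1 for sh2 against sh1 and 8 for the difference, and 22 lower with overexpression, 12 for Vector against shControl and 6 for the difference. Among all 12731 genes tested the counts higher were 2959, 2519, 1987, 2262, 51 and 2159 in that order. The counts lower were 2614, 2200 and 1724 in that order. TXNDC5 turned to -0.045 with overexpression. Quantile normalization gave medians of -0.14 with the inhibitor and -0.12 with overexpression, 0 members higher with the hairpins, 2 with the inhibitor and 2 with overexpression, and 11 lower for the inhibitor against the hairpins. Among all 12731 genes tested 2889, 2123 and 2203 were then higher and 2986 lower, in the same order. Under quantile normalization DNAJB11 turned to -0.0028 and HYOU1 to -0.11 with the inhibitor, and SSR2 to 0.040 with sh1.

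Without the variance trend 1 member was higher with the hairpins, 2 with overexpression and 1 for sh2 against sh1, and 2 were lower for the inhibitor against the hairpins. Among all 12731 genes tested 3275, 3321 and 15 were then higher and 2776 lower, in the same order. Without a filter 1 member was higher with the hairpins, 2 with overexpression and 6 for Vector against shControl, and 10 were lower with the inhibitor and 3 for the inhibitor against the hairpins. Among the 29607 genes then tested 2734, 2638 and 1901 were higher and 1161 and 2335 lower, in the same order. A filter at 5 TPM gave 7 members higher for sh2 against sh1, with 251 of the 9667 genes then tested higher. Fitting only the groups compared gave 1 member higher with the hairpins, 2 with overexpression, 0 with sh1 and 0 for sh2 against sh1, and 3 lower for the inhibitor against the hairpins. Among all 12731 genes tested 3097, 2715, 2354 and 4 were then higher and 2514 lower, in the same order.

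Same-numbered libraries showed little joint deviation (correlations of -0.10 to 0.14 over 15 pairs of groups, 1 of them above 0.1). Whether they shared more than a number was not tested. With the replicate block 2 members were higher with overexpression in place of 4, 26 in place of 28 were lower with the hairpins, and the other counts stayed within 1.5 times. Among all 12731 genes tested 3289 in place of 3381 were higher with overexpression, and 2504 in place of 2570 were lower with the hairpins.

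Leaving out 1 library at a time gave 0 to 2 members higher with the hairpins, 0 to 1 with sh1, 0 to 1 with sh2, 2 to 5 with the inhibitor, 2 to 3 with overexpression, 5 to 8 for Vector against shControl and 1 to 4 for sh2 against sh1. It gave 10 to 12 lower with the inhibitor in place of 16, 2 to 5 for the inhibitor against the hairpins in place of 5 and 10 to 18 for the difference. Median changes ran over -0.26 to -0.22 with the hairpins, -0.086 to -0.033 with the inhibitor, -0.093 to -0.065 with overexpression and 0.0088 to 0.040 for Vector against shControl.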
